A study of Mus musculus with 12 samples.

Results

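The genes described here are the subunits of potassium, sodium and calcium channels that were listed among the features of single-cell RNA sequencing (scRNA-seq) of the superior mesenteric ganglion (SMG) of mice. They were chosen by symbol alone, as every feature whose symbol begins with Kcn, Scn or Cacn and goes on as a channel subunit name, without those ending in os. The rule took 136 of the 32289 features, and all 136 were found in the GENCODE annotation by gene identifier. Most belong to voltage-gated channels, but the rule also takes the inward rectifiers (Kcnj, 15 genes), the tandem-pore leak channels (Kcnk, 14 genes), the calcium- or sodium-activated channels (Kcnm, Kcnn, Kcnt and Kcnu, 12 genes) and 3 noncoding RNAs. The others were 40 pore and 12 auxiliary subunits of voltage-gated potassium (Kv) channels, 10 pore and 4 beta subunits of sodium (Nav) channels, and 10 pore, 4 alpha2delta, 4 beta and 8 gamma subunits of calcium (Cav) channels.

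The SMG of 12 mice of the strain 129+Ter/SvJcl were profiled: 1 wild-type (WT) mouse at 3 weeks of age, 10 Th-MYCN+/- mice at 3 weeks and 1 Th-MYCN+/- mouse at 6 weeks. Th-MYCN+/- mice are hemizygous for a human MYCN transgene driven by a tyrosine hydroxylase promoter, which is active in the sympathoadrenal lineage, and they form neuroblastoma in these ganglia. The 6-week-old ganglion had been picked because a tumor was visible on dissection. With 1 mouse each, the WT and 6-week-old groups allowed no test between groups, and their values carry intervals for counting error alone.

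A neuron fires because sodium channels open on depolarization, potassium channels repolarize the membrane and calcium channels couple the action potential to transmitter release. Each channel is built from a pore subunit and auxiliary subunits that set its gating and its traffic to the membrane, and leak and inward rectifying potassium channels hold the resting potential. Sympathetic neurons acquire these channels as they mature from neuroblasts. Glia carry channels of their own, and the ATP-sensitive potassium channel of mural cells controls the tone of small vessels.

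Libraries held between 1147772 (the WT mouse) and 6388766 unique molecular identifiers (UMIs), each of which stands for 1 captured RNA molecule. From 522 to 1826 cells per library passed, 12009 in all, with a median of 555.5 to 2367 UMIs per cell. Of 11916 distinct barcodes, 92 occurred in more than 1 library, in 185 cells. Clusters were named from marker lists as neuroblast-like (5262 cells), Schwann-like (2919), ganglion-like (2724), endothelial-like (512), macrophage-like (190), fibroblast-like (141), myofibroblast-like (166) and B cell-like (95 cells, which also met 6 of 9 markers of natural killer T cells). The channel genes had been left out of the clustering. The transgene, listed as H_MYCN, was at 0 UMIs in the WT mouse and between 19 and 1031 UMIs in the cells of each Th-MYCN+/- mouse. Levels are in CPM, for which the UMIs counted for a gene were scaled to 1000000 UMIs of the same cell class and mouse. In the 10 mice of 3 weeks the transgene reached 303 ± 144 CPM (SD) in neuroblast-like and 2.25 ± 2.92 in ganglion-like cells. One library stood apart: in replicate 2 of the 3-week-old mice, 38.6% of the UMIs lay in cells, against 74.1% to 87.1% in the other 9, and it gave 1503 ganglion-like but only 9 Schwann-like cells with 5090 UMIs, so that 1 UMI there counts as 196.5 CPM. The 39 neuroblast-like cells of the WT mouse did not carry their label: their neuroblast markers summed to 1803 CPM against 11897 to 19698 in the 3-week-old Th-MYCN+/- mice, and their ganglion markers to 32232. They are given no further value here.

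Of the 136 channel genes, 93 were detected, defined as at least 20 UMIs over the cells of all 12 mice. Of the other 43, 12 had no UMI in any cell. Together the genes held 43084 of 31100411 UMIs in cells, or 0.139%. Expression was thin: 79.5% of the 30967 pairs of a cell and a channel gene with any UMI held a single UMI. The genes with the most UMIs were Scn9a (2092 UMIs), the sodium channel pore of sympathetic and sensory neurons, Cacnb3 (2066), a cytosolic beta subunit of calcium channels, Scn3b (1842), a sodium channel beta subunit, Kcnq1ot1 (1728), a noncoding RNA transcribed across the Kcnq1 locus, and Cacna2d1 (1583), the alpha2delta subunit that binds gabapentin. These 5 genes held 21.6% of the UMIs of the group. UMIs were read from the 3' ends of transcripts and were not divided by gene length, so that values are compared for 1 gene between cell classes and not between genes.

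Promoters from RefSeq (build GRCm38.p6, from 250 bases before to 50 bases after a transcription start) were matched for 100 of the 136 genes, with 136 promoters. The following 5 were chosen among those of genes on which the comparisons between classes turn. Other such genes with an entry, as Kcnip1, Kcnip4, Kcnk2 and Kcnmb4, are not shown. Sequences are on the strand of the gene, with CG dinucleotides in capitals. Kcnmb2 (chr3:31902453-31902752, plus strand) was highest in neuroblast-like cells, Kcnc4 (chr3:107458849-107459148, minus strand) and Scn2b (chr9:45117626-45117925, plus strand) in ganglion-like cells, and Scn7a (chr2:66784861-66785160, minus strand) and Kcnj10 (chr1:172340960-172341259, plus strand) in Schwann-like cells.
Kcnmb2: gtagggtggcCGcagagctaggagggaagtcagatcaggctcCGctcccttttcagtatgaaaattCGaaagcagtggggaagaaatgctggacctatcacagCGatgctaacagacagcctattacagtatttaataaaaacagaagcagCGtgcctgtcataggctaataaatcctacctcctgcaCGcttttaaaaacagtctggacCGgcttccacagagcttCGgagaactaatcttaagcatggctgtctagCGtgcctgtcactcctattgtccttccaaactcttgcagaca
Kcnc4: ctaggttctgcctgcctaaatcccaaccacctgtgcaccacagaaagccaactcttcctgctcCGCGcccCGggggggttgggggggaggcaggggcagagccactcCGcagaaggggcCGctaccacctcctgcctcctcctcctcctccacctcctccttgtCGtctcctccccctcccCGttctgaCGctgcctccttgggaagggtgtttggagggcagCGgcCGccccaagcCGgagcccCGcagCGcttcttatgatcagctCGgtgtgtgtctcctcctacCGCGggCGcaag
Scn2b: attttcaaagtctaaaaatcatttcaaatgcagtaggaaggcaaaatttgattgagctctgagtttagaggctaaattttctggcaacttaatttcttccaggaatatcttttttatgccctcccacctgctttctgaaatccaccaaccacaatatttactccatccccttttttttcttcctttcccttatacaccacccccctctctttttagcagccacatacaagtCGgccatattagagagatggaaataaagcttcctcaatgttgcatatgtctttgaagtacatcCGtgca
Scn7a: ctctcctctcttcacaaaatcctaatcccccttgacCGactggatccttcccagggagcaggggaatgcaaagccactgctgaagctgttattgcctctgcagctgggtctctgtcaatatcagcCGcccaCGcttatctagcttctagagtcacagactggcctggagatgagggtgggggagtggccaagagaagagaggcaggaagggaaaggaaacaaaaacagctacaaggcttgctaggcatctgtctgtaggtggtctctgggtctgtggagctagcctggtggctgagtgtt
Kcnj10: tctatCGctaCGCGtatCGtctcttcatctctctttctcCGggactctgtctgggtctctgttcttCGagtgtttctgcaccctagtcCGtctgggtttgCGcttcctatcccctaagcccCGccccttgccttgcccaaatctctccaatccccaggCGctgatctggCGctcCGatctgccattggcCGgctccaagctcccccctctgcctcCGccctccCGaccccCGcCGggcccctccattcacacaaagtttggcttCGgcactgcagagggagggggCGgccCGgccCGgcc

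The CG content differed widely among these 5, with 9 CG dinucleotides in Kcnmb2, 17 in Kcnc4, 2 in Scn2b, 3 in Scn7a and 21 in Kcnj10. High and low CG content thus occurred both in the 2 genes shown for ganglion-like cells and in the 2 shown for Schwann-like cells. The median was 10 for the 99 promoters of detected channel genes and 7 for all 32851 promoters in the table. By the class in which a gene was highest, the median was 16 for neuroblast-like, 13 for ganglion-like and 8 for Schwann-like cells, over 17, 44 and 12 promoters. The hexamer CACGTG, which reads the same on both strands and is the core element bound by MYC family proteins, was searched in the same windows. It occurred in 7.15% of all promoters and in 6 of the 99 promoters of detected channel genes (6.06%), and in none of the 5 shown. The 5 detected genes with the hexamer were Kcne4 and Kcnab1, highest in myofibroblast-like cells, Kcnn4 in Schwann-like and Kcnh4 in neuroblast-like cells, and Kcnk5, whose highest mean rests on 1 UMI and is not read. None of the 44 promoters of genes highest in ganglion-like cells held it. A match or its absence describes the letters of this window and no binding.

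Summed over the 136 genes, ganglion-like cells of the 10 mice held 2035 ± 417 CPM (SD, n = 10 mice) and neuroblast-like cells 1105 ± 167. In neuroblast-like cells the mice lay between 768 and 1280, and in ganglion-like cells between 1132 and 2721. The lowest ganglion value and the lowest neuroblast value were both those of replicate 2, and that ganglion value lay within the neuroblast range. Schwann-like cells held 1802 ± 341, with a range of 1375 to 2609, and myofibroblast-like cells 1998 ± 668 (n = 9). Endothelial-like cells held 300 ± 180, macrophage-like cells 285 ± 189, fibroblast-like cells 527 ± 296 (n = 9) and B cell-like cells 117 ± 125 (n = 5). The mural cells and the glia thus carried sums in the same range as the neurons. Free RNA was estimated at 13.4% to 50% of the UMIs of ganglion-like cells, with 2 mice at the cap of 50%, and with it subtracted the sum in these cells was 2597 ± 713.

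The classes differed in which subfamily made up the sum. The Kv pore subunits held 466 ± 111 CPM in ganglion-like, 149 ± 41.2 in neuroblast-like and 817 ± 363 in Schwann-like cells. Nav beta subunits held 274 ± 238 in ganglion-like cells, where 1 mouse reached 944, and 70.5 ± 22.5 in neuroblast-like cells. Cav gamma subunits, most of which traffic glutamate receptors rather than calcium channels, held 147 ± 41.3 in neuroblast-like, 114 ± 38.3 in ganglion-like and 11.8 ± 10.1 in Schwann-like cells. Tandem-pore channels were of like size in the neural classes, with 114 ± 21.8, 87.5 ± 31.2 and 94.9 ± 48.8 in neuroblast-, ganglion- and Schwann-like cells. Inward rectifiers were almost absent from neuroblast-like cells, at 7.87 ± 3.36, and held 213 ± 139 in Schwann-like and 783 ± 385 in myofibroblast-like cells. The Schwann-like values of these last 2 subfamilies include replicate 2, with 9 cells and 5090 UMIs. There Kcnj10 was at 392.9 and the tandem-pore gene Kcnk3 at 196.5, each the highest of the mice. Of the 93 detected genes, 45 had their highest mean in ganglion-like, 15 in neuroblast-like and 10 in Schwann-like cells. The others had it in one of the smaller classes, where the mean of several rests on as little as 1 UMI, as for Cacnb2 in myofibroblast-like and Cacna2d4 in B cell-like cells, so that they are not counted by class.

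**Figure D1:**
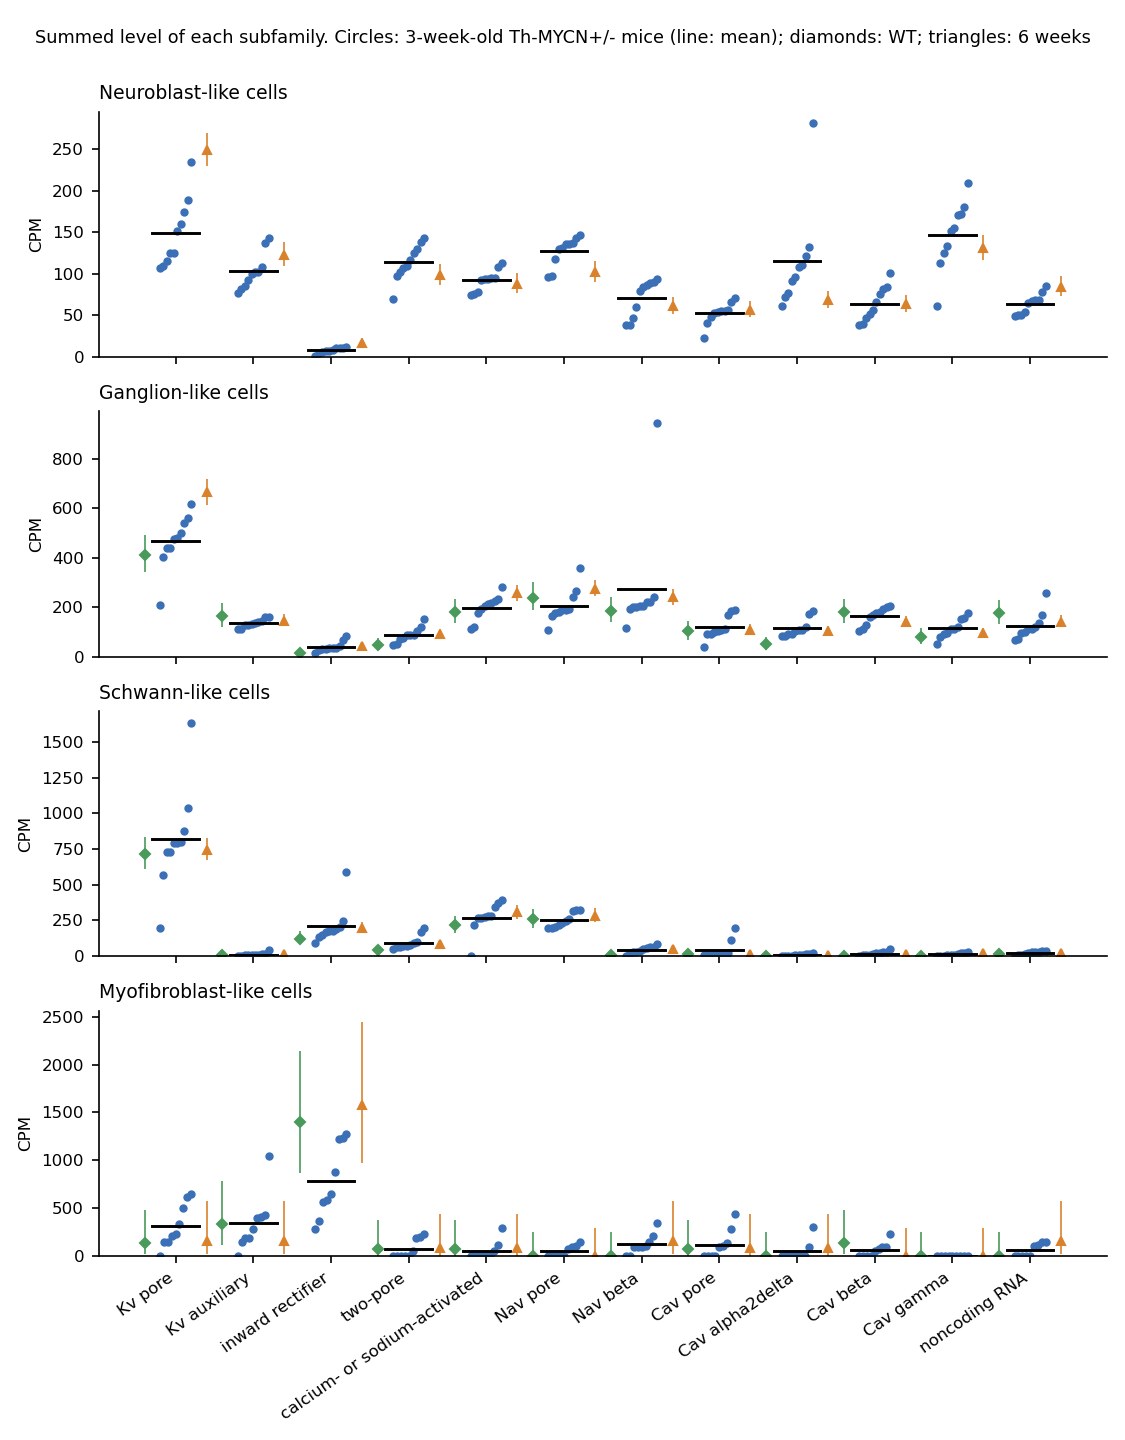
Summed level of each subfamily (linear y axis, CPM) in neuroblast-like, ganglion-like, Schwann-like and myofibroblast-like cells. Circles are the 3-week-old Th-MYCN+/- mice sorted by value, black lines their mean, diamonds the WT mouse (not drawn for neuroblast-like cells) and triangles the 6-week-old mouse, the last 2 with 95% Poisson intervals. Kv pore subunits averaged 466 in ganglion-like and 149 in neuroblast-like cells, and inward rectifiers 783 in myofibroblast-like cells.

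Depth differed between classes, so each cell was thinned to 500 UMIs and shallower cells were left out. At this depth, 39.2% ± 5.28 of neuroblast-like cells (SD, n = 10 mice, 1135 of 4847 cells left out), 59.1% ± 10.0 of ganglion-like cells (442 of 2490 left out) and 57.2% ± 7.23 of Schwann-like cells (399 of 2226 left out) held at least 1 UMI of a channel gene. Before thinning the shares were 68.5%, 74.7% and 75.5%. The share was 64.3% ± 9.89 in myofibroblast-like (n = 7), 14.8% ± 7.97 in endothelial-like, 12.1% ± 11.99 in macrophage-like (n = 9) and 5.13% ± 6.28 in B cell-like cells (n = 4). In fibroblast-like cells it was 30.7% ± 18.02 (n = 6). Of single genes, Kcna1, a Kv pore subunit, was seen at 500 UMIs in 314 of 1827 Schwann-like cells (17.2%). It was seen in 3 of 3712 neuroblast-like (0.0808%) and 1 of 2048 ganglion-like cells (0.0488%). All cells of these classes, in this order and with the shallower cells included, had medians of 971, 2579 and 1150.5 UMIs before thinning. Kcnj8, the pore of the ATP-sensitive channel of mural cells, was seen in 27 of 92 myofibroblast-like cells (29.3%) and in 0 of 3712 neuroblast-like cells, a count that limits cells with a UMI of the gene at this depth to 0.0808% and sets no limit on the cells that express it.

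**Figure D2:**
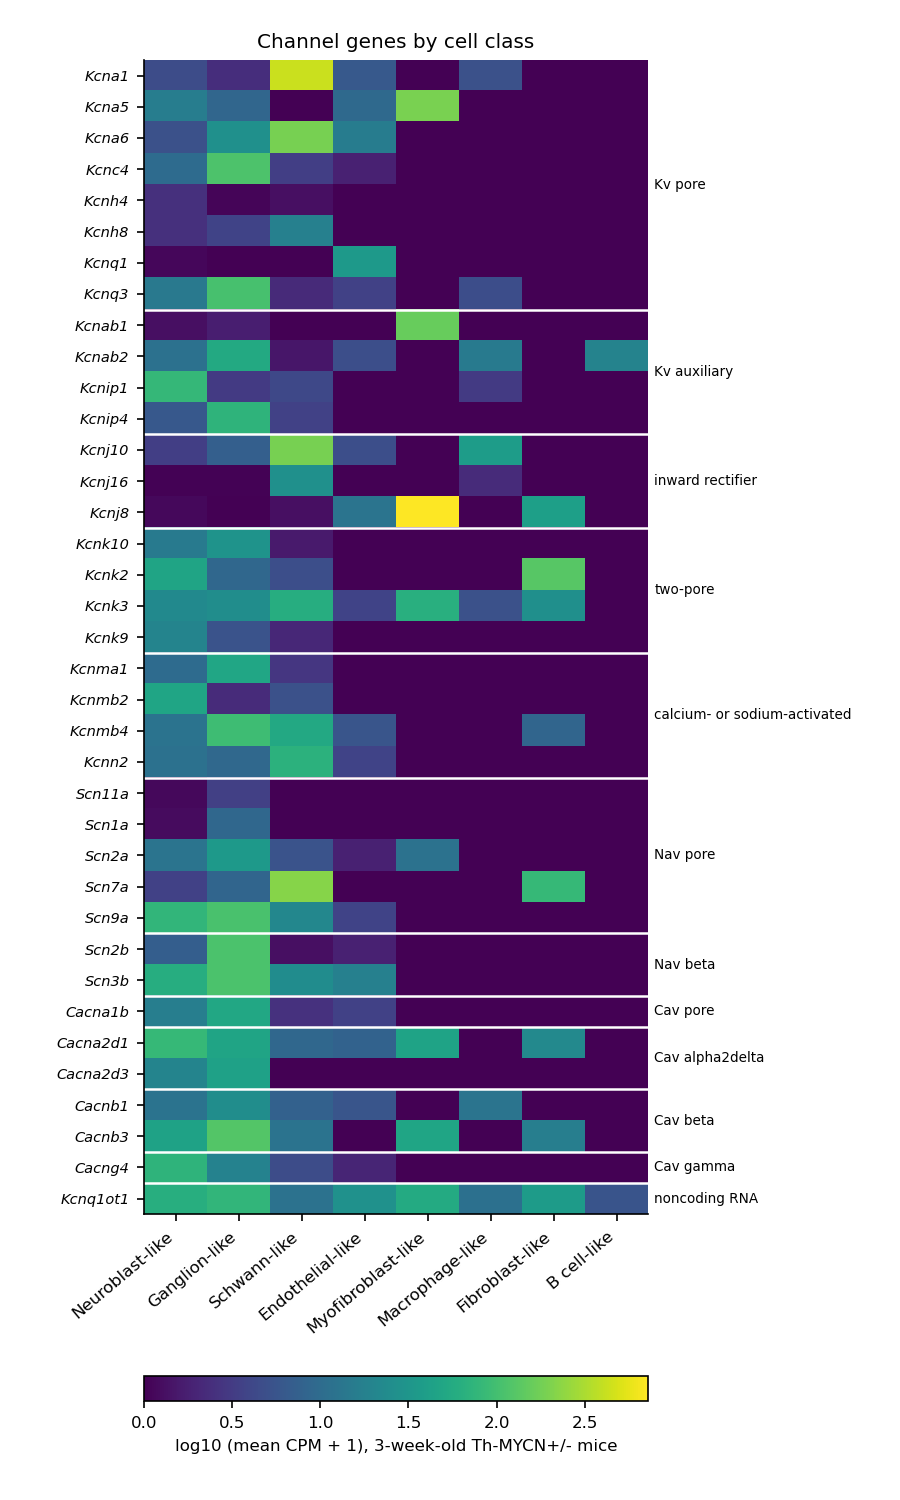
Mean level of 37 channel genes (rows, by subfamily) in 8 cell classes (columns) of the 3-week-old Th-MYCN+/- mice, with color as log10 of the mean CPM plus 1. Bright cells mark Kcna1, Scn7a and Kcnj10 in Schwann-like, Kcnj8 in myofibroblast-like and Kcnc4, Kcnq3 and Scn2b in ganglion-like cells.

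Ganglion-like cells were compared with neuroblast-like cells of the same 10 mice to ask which channels differ between the neurons and the MYCN-bearing neuroblasts. Ganglion-like cells were higher in the pore subunits Kcnc4 (a fast Kv channel that opens at high voltage) and Kcnq3 (a subunit of the M current that restrains repetitive firing), in the Nav beta subunits Scn2b and Scn3b and in Kcnmb4, the neuronal beta subunit of large-conductance calcium-activated (BK) channels. Neuroblast-like cells were higher in Kcnip1, a calcium-binding partner of the A-type Kv channels, in Kcnmb2, a beta subunit that makes BK channels inactivate, in the leak channels Kcnk9 and Kcnk2, and in Cacng4. In edgeR's quasi-likelihood test with the mouse as a block and Benjamini-Hochberg adjustment at 0.05, 35 of the 136 channel genes passed the filter on low counts, of which 20 were called higher and 6 lower in ganglion-like cells. Over all 7836 genes tested, 67.6% were called, 29.8% higher and 37.9% lower. The median difference on the log2 scale was 0.69 over the 35 genes and −0.15 over all genes tested. The 35 include genes that passed through the class in which they are high, and are not all channel genes. For 9 of them the ranges of the classes over the 10 mice did not overlap, with 6 genes above and 3 below the neuroblast range, where 19.9% of all genes tested had ranges that did not overlap, 8.55% above and 11.3% below.

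**Figure D3:**
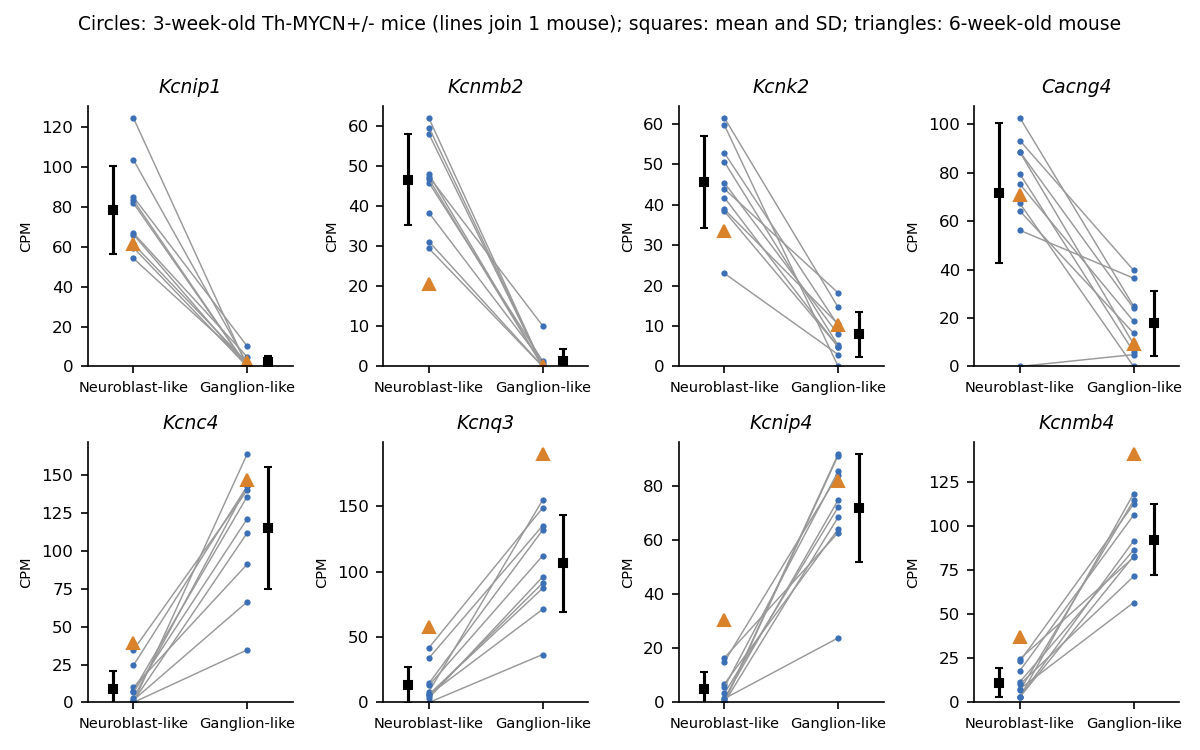
Level of 8 channel genes (linear y axes, CPM) in neuroblast-like and ganglion-like cells. Circles are the 10 Th-MYCN+/- mice of 3 weeks with lines joining the classes of 1 mouse, squares with bars are mean and SD (bars end at 0), and triangles are the 6-week-old mouse. Kcnip1 and Kcnmb2 lie between 29.5 and 124.6 in neuroblast-like cells and between 0 and 10.2 in ganglion-like cells.

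Among the Kv pore subunits, 3 of 5 tested were called higher in ganglion-like cells and none lower. Kcnc4 (chr3:107438303-107459552 in the annotation) ranged from 34.7 to 163.9 CPM in ganglion-like cells, with a median of 128.5, and from 0 to 34.6 in neuroblast-like cells, with a median of 4.79. The ranges did not overlap, although the lowest ganglion value, in replicate 2, stood just above the highest neuroblast value, in replicate 10. The difference was 3.77 ± 0.41 on the log2 scale (SE, edgeR adjusted p = 1.13e-07), higher in 10 of 10 mice. Kcnq3 ranged from 36.6 to 154.8 in ganglion-like cells (median 104.1) and from 0 to 41.8 in neuroblast-like cells (median 7.13). These ranges overlapped, but within each mouse the ganglion-like cells were higher, by 2.94 ± 0.27 (edgeR adjusted p = 1.10e-08). Kcna6, a Kv subunit that is highest in Schwann-like cells, held 26.1 ± 11.9 in ganglion-like and 4.06 ± 4.21 in neuroblast-like cells, a difference of 2.77 ± 0.36 (edgeR adjusted p = 1.37e-06). Schwann markers summed to 1872 to 6179 CPM in ganglion-like cells and to 237 to 5434 in neuroblast-like cells, and their part in the Kcna6 difference was not tested. Kcna5 held 7.88 ± 7.06 in ganglion-like and 15.1 ± 15.3 in neuroblast-like cells and did not pass the threshold (edgeR adjusted p = 0.150).

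The 4 genes Kcnc4, Kcnq3, Kcnip4 and Kcnmb4 were each highest, among the neuroblast-like cells of the 3-week-old mice, in replicates 10 and 4. Kcnq3 reached 41.8 and 33.9 CPM there, against 0 to 14.6 in the other 8 mice. Ganglion markers in neuroblast-like cells were also highest in these libraries, at 9845 in replicate 10 and 8386 in replicate 4 against 1221 to 3623 in the others, and their part in these levels was not tested.

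Within the Kcnip family, auxiliary subunits of Kv channels divided between the classes. Kcnip1 (chr11:33629339-33993152) lay between 54.2 and 124.6 CPM in neuroblast-like cells, with a median of 74.4, and between 0 and 10.2 in ganglion-like cells, where 11 UMIs were counted over all 12 mice. Its relative Kcnip4 lay between 0 and 16.5 in neuroblast-like cells (median 2.44) and between 23.8 and 91.6 in ganglion-like cells (median 73.3). Neither pair of ranges overlapped, and the genes lay on opposite sides. On the log2 scale the difference was −5.76 ± 0.38 for Kcnip1 (edgeR adjusted p = 1.69e-10) and 3.54 ± 0.41 for Kcnip4 (edgeR adjusted p = 3.09e-07), each with the same sign in 10 of 10 mice. Kcnab2, a beta subunit of Kv channels, was higher in ganglion-like cells in 10 of 10 mice, at 53.7 ± 16.4 against 10.7 ± 4.16.

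The BK channel showed the same division. Kcnmb2 (chr3:31902507-32200180), whose promoter is printed above, lay between 29.5 and 62.0 CPM in neuroblast-like cells (median 47.1) and was at 0 in 7 of the 10 mice in ganglion-like cells, where 4 UMIs were counted over all 12 mice. Kcnmb4 lay between 3.06 and 24.7 in neuroblast-like cells (median 8.99) and between 56.6 and 118.4 in ganglion-like cells (median 89.0). The ranges of both genes were apart. The log2 difference was −6.00 ± 0.43 for Kcnmb2 (edgeR adjusted p = 4.97e-10) and 2.92 ± 0.29 for Kcnmb4 (edgeR adjusted p = 3.92e-08). The pore subunit Kcnma1 was higher in ganglion-like cells, at 48.8 ± 26.8 against 8.92 ± 5.17 (log2 difference 2.10 ± 0.26, edgeR adjusted p = 9.05e-07). Kcnmb4os2, a noncoding RNA on the opposite strand, overlaps the start of Kcnmb4 in the annotation. The sources used here do not say whether UMIs were assigned by strand, so that UMIs of the overlap cannot be told apart.

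Of the 5 tandem-pore channels tested, Kcnk2 (a channel opened by stretch and lipids) and Kcnk9 (an acid-sensitive leak channel) were lower in ganglion-like cells and Kcnk10 and Kcnk1 higher. Kcnk2 lay between 23.0 and 61.5 CPM in neuroblast-like cells and between 0 and 18.2 in ganglion-like cells, with no overlap, and the log2 difference was −2.71 ± 0.26 (edgeR adjusted p = 2.41e-08). Kcnk9 lay between 10.0 and 23.7 in neuroblast-like and between 0 and 18.2 in ganglion-like cells, with overlap, and was lower in ganglion-like cells of 10 of 10 mice (−2.83 ± 0.40, edgeR adjusted p = 4.09e-06). Kcnk10 held 28.6 ± 15.2 in ganglion-like and 13.9 ± 15.8 in neuroblast-like cells (0.96 ± 0.38, edgeR adjusted p = 0.0297), and without the block of the mouse it did not pass the threshold (adjusted p = 0.0844). In 1 neuroblast-like cell of replicate 9, 72 UMIs of Kcnk10 were counted, 14.9% of those of the gene. Kcnk3, an acid-sensitive leak channel like Kcnk9, held 24.1 ± 17.0 and 21.7 ± 10.8 (edgeR adjusted p = 0.798).

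Scn2b and Scn3b, sodium channel beta subunits that anchor and modulate the pore, were higher in ganglion-like cells. Scn2b lay between 34.7 and 547.3 CPM in ganglion-like cells (median 73.1) and between 0.766 and 15.4 in neuroblast-like cells (median 4.13). The ranges did not overlap, and the log2 difference was 3.91 ± 0.43 (edgeR adjusted p = 1.56e-07). The value of 547.3, in replicate 8, rested on 1 of 40 cells, which held 64 of the 69 UMIs, and was 47.5 without that cell. Scn3b differed less, at 110 ± 81.2 against 59.8 ± 22.8 (0.58 ± 0.21, edgeR adjusted p = 0.0178), and was already present in neuroblast-like cells at 15.4 to 85.7.

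Of the 4 sodium channel pores tested, Scn2a and Scn3a passed the threshold. Scn9a held 107 ± 39.1 CPM in ganglion-like and 74.7 ± 13.0 in neuroblast-like cells, and the difference of 0.31 ± 0.16 on the log2 scale did not pass the threshold (edgeR adjusted p = 0.0905). Scn2a, a pore of central axons, was higher in ganglion-like cells in 9 of 10 mice, at 33.0 ± 19.7 against 11.7 ± 3.54 (1.29 ± 0.27, edgeR adjusted p = 2.65e-04). Scn3a, an embryonic form, held 30.7 ± 13.6 and 19.6 ± 7.28 (0.48 ± 0.21, edgeR adjusted p = 0.0491). Scn8a, the main pore of nodes of Ranvier, held 15.7 ± 12.3 and 17.8 ± 5.87 and did not pass (edgeR adjusted p = 0.449).

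The calcium channel subunits were mostly higher in ganglion-like cells, with Cacng4 and Cacna2d1 as the exceptions among those called. Cacna1b, the pore of the N-type channel that drives transmitter release in sympathetic neurons, held 51.3 ± 23.3 CPM in ganglion-like and 15.9 ± 6.59 in neuroblast-like cells (log2 difference 1.49 ± 0.23, edgeR adjusted p = 1.23e-05). Cacna1a, the pore of the P/Q-type channel, held 38.0 ± 19.6 and 20.03 ± 5.13 (0.77 ± 0.22, edgeR adjusted p = 0.00501). Of the beta subunits, Cacnb3 was higher in 10 of 10 mice, at 124 ± 36.0 against 43.4 ± 18.7 (1.36 ± 0.19, edgeR adjusted p = 3.81e-06), and Cacnb1 in 8 of 10 (1.05 ± 0.25, edgeR adjusted p = 9.72e-04). The alpha2delta subunits did not move together: Cacna2d3 was higher (1.19 ± 0.25, edgeR adjusted p = 3.29e-04), Cacna2d2 did not pass (edgeR adjusted p = 0.169) and Cacna2d1 was lower (−0.76 ± 0.25, edgeR adjusted p = 0.0108). Cacna2d1 held 46.2 ± 24.7 in ganglion-like and 82.1 ± 64.2 in neuroblast-like cells, where 1 cell of replicate 7 held 111 of 156 UMIs. With free RNA subtracted, its difference was −0.79 and did not pass the threshold (adjusted p = 0.0831).

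Cacng4, a gamma subunit that accompanies AMPA-type glutamate receptors, lay between 56.2 and 102.6 CPM in the neuroblast-like cells of 9 mice and was at 0 in replicate 2. In ganglion-like cells it lay between 0 and 39.7. It was lower in ganglion-like cells in 9 of 10 mice, the exception being replicate 2 (−2.38 ± 0.30, edgeR adjusted p = 7.75e-07). Its relatives Cacng2 and Cacng3 did not pass (edgeR adjusted p = 0.227 and 0.946), and Cacng7 was higher (0.90 ± 0.25, edgeR adjusted p = 0.00327). Kcnq1ot1 held 74.9 ± 43.6 in ganglion-like and 61.0 ± 10.1 in neuroblast-like cells and did not pass (edgeR adjusted p = 0.955).

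Channels work with pumps, anchors and regulators, and 31 such genes were listed beside them. Unlike the channel genes, these could take part in the clustering. In the same test 19 of them were tested, of which 16 were called higher and 3 lower in ganglion-like cells. Higher were Stac, an adaptor of calcium channels (log2 difference 3.08 ± 0.41, edgeR adjusted p = 2.03e-06), Ank2, an ankyrin that anchors channels (2.18 ± 0.16, 7.21e-10), and Atp1b1, the beta subunit of the sodium pump, at 1458 ± 179 against 348 ± 143 CPM. Lower were Fgf13, which binds sodium channels, at 7.26 ± 6.93 against 77.9 ± 16.4 (−3.51 ± 0.25, edgeR adjusted p = 4.29e-10), Rcor2, a corepressor of the REST complex that represses neuronal genes (−2.60 ± 0.25, edgeR adjusted p = 1.94e-08), and Cntnap2, which clusters Kv channels (−1.09 ± 0.26, edgeR adjusted p = 9.45e-04). Fgf12, of the same family as Fgf13, lay on the other side, at 29.3 ± 7.72 against 9.77 ± 2.91 (1.33 ± 0.24, edgeR adjusted p = 6.36e-05).

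Some genes of ganglion-like cells were too rare to be tested. Scn1a, a sodium channel pore, held 8.09 ± 7.75 CPM in ganglion-like and 0.213 ± 0.450 in neuroblast-like cells, and Scn11a, a pore known from nociceptors, 2.51 ± 2.82 and 0.166 ± 0.357. Scn1a was above its next class in 8 of 10 mice and Scn11a in 6. On the neuroblast side Kcnh4, a slow voltage-gated channel, was at 1.504 ± 0.945 with 30 UMIs in the class, and at 0.0979 ± 0.310 in ganglion-like cells.

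Among the neural classes, Schwann-like cells, the glia of the ganglion, were highest in a set of genes led by Kcna1, Scn7a and Kcnj10. Against neuroblast-like cells of the same 10 mice, 15 channel genes passed the filter, of which 6 were called higher and 9 lower, where 31.2% and 35.7% of the 5681 genes tested were called in these directions and 66.9% in all. Against ganglion-like cells 8 passed, of which 4 were called higher and 4 lower, beside 31.4% and 38.3% of 3215 genes, 69.7% in all. The 15 and the 8 genes include genes that passed through the class in which they are high and are not all channel genes. These comparisons share the Schwann-like sums, so that their values are given side by side.

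Kcna1 (chr6:126640397-126646384) ranged from 191.7 to 1158.3 CPM in Schwann-like cells, with a median of 366.1, and reached at most 15.4 in neuroblast-like cells and 4.80 in those of the ganglion-like class. The Schwann range lay above both others. The log2 difference was 7.91 ± 0.35 against neuroblast-like (edgeR adjusted p = 4.15e-15) and 7.78 ± 0.29 against ganglion-like cells (edgeR adjusted p = 1.33e-14). The highest value came from replicate 7, where 2 cells held 73 and 70 of 226 UMIs, and it was 788.9 without the first of them. Kcna2 (158 ± 66.5 in Schwann-like cells, 2.44 ± 2.55 in neuroblast-like cells) and Kcna6 (189 ± 75.6), which join Kcna1 in channels of the same family, were also high in Schwann-like cells. Kcna6 was 3.16 ± 0.20 above ganglion-like cells (edgeR adjusted p = 5.55e-12), with 0 UMIs in replicate 2 and 146.2 to 262.1 in the other 9 mice.

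Scn7a, which encodes a sodium sensor of glia rather than a voltage-gated pore, lay between 165.6 and 307.5 CPM in Schwann-like cells (median 204.7), between 0 and 15.4 in neuroblast-like cells and between 0 and 16.6 in ganglion-like cells. Kcnj10, the inward rectifier with which glia take up potassium, lay between 84.5 and 392.9 in Schwann-like cells (median 168.3), between 0 and 8.36 in neuroblast-like and between 1.96 and 10.2 in ganglion-like cells. For both genes the Schwann-like mice lay above all mice of the neuroblast-like and ganglion-like classes. Not all smaller classes lay below the Schwann range. Scn7a reached 232 in fibroblast-like cells and Kcnj10 reached 127.4 in macrophage-like cells, each in the highest mouse of the class. The log2 difference was 7.48 ± 0.36 against neuroblast-like and 5.16 ± 0.24 against ganglion-like cells for Scn7a (edgeR adjusted p = 1.51e-14 and 5.87e-14), and 7.09 ± 0.37 and 5.17 ± 0.25 for Kcnj10 (edgeR adjusted p = 5.76e-14 and 1.17e-13). Kcnj16, which combines with Kcnj10 in glia, held 4.49 to 18.3 in 7 mice, 0 in replicates 1 and 6, and 1 UMI, or 196.5 CPM, in replicate 2. The promoters of Scn7a and Kcnj10, printed above, hold 3 and 21 CG dinucleotides.

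Small- and intermediate-conductance calcium-activated channels were present in Schwann-like cells as well. Kcnn2 held 68.6 ± 33.1 CPM there and 10.5 ± 5.98 in neuroblast-like cells (log2 difference 3.23 ± 0.26, edgeR adjusted p = 1.77e-10), and was higher in 9 of 10 mice, replicate 2 having 0. Kcnn4 held 134 ± 63.0 in Schwann-like and 2.36 ± 2.59 in neuroblast-like cells and was not among the genes tested. Without replicate 2, with its 9 Schwann-like cells, 13 channel genes passed the filter against ganglion-like cells, of which 7 were called higher and 6 lower, beside 32.8% and 39.3% of the 3410 genes tested, 72.1% in all. The 3 further genes called higher were Kcnn4 (5.29 ± 0.40, edgeR adjusted p = 1.52e-09), Kcna2 (4.42 ± 0.39, 1.10e-08) and Kcnn2 (2.81 ± 0.29, 9.32e-08), and those called lower were Kcnc4 (−5.48 ± 0.35, 1.78e-10) and Kcnq3 (−5.71 ± 0.34, 7.67e-11). Kcnmb4 stood between the classes, at 11.2 ± 8.19 in neuroblast-like, 51.5 ± 26.0 in Schwann-like and 92.3 ± 20.3 in ganglion-like cells, and was called in both comparisons (2.58 ± 0.30 against neuroblast-like, −0.64 ± 0.18 against ganglion-like cells, edgeR adjusted p = 8.43e-08 and 0.00340). Kcnk3 was higher than in neuroblast-like cells (1.23 ± 0.27, edgeR adjusted p = 3.28e-04) and held 20.5 to 78.4 in 9 mice and 196.5, from 1 UMI, in replicate 2.

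**Figure D4:**
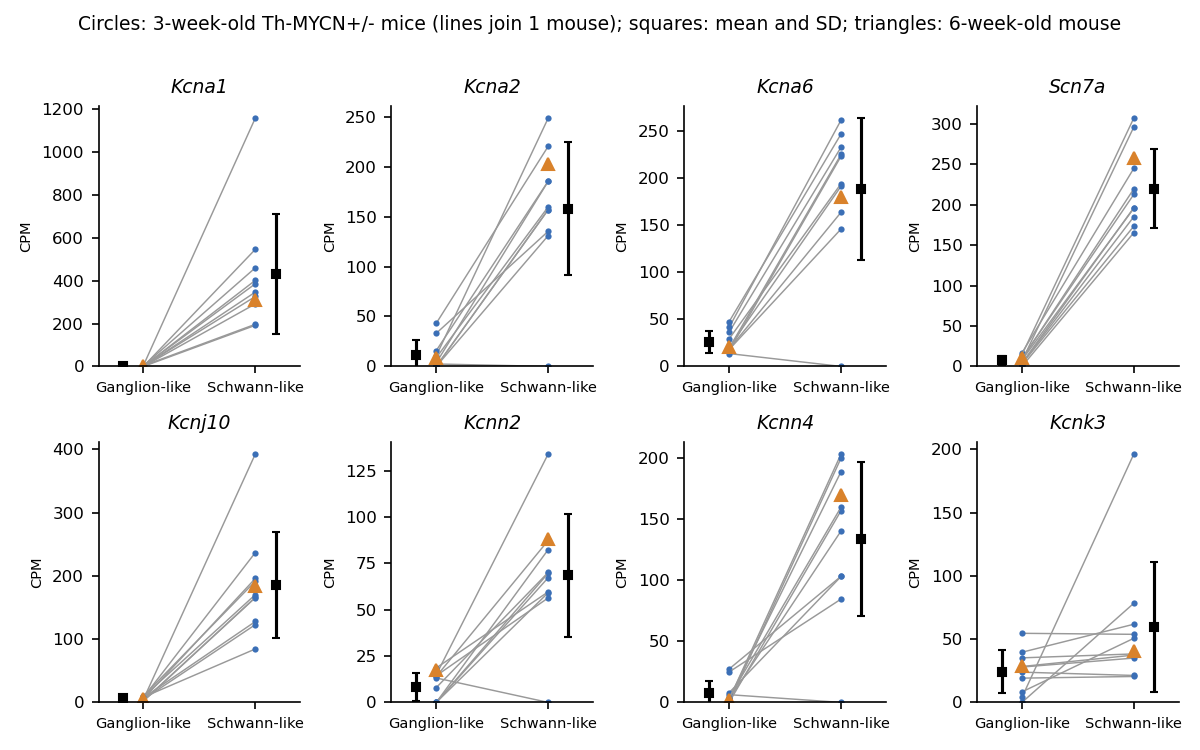
Level of 8 channel genes (linear y axes, CPM) in ganglion-like and Schwann-like cells. Circles are the 10 Th-MYCN+/- mice of 3 weeks with lines joining the classes of 1 mouse, squares with bars are mean and SD (bars end at 0), and triangles are the 6-week-old mouse. The Schwann-like values of Kcna1 lie between 191.7 and 1158.3, all above the ganglion-like values of 0 to 4.80.

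The 9 genes called lower in Schwann-like than in neuroblast-like cells included auxiliary subunits, leak channels and pores of neurons and 1 noncoding RNA. Kcnip1 (−4.32 ± 0.35, edgeR adjusted p = 1.85e-10), Kcnmb2 (−3.70 ± 0.49, 4.84e-07) and Kcnk2 (−3.31 ± 0.38, 5.82e-08) were lower, each in 10 of 10 mice, so that Kcnip1 and Kcnmb2 held 3.19 ± 3.81 and 4.15 ± 10.6 CPM in Schwann-like cells. Cacna2d1, Kcnq1ot1, Cacnb3, Scn9a and Scn3b were lower as well, with log2 differences of −1.04 (Scn3b) to −3.21 (Cacna2d1). Against ganglion-like cells, Cacnb3 (−3.41 ± 0.28, edgeR adjusted p = 2.76e-10), Scn9a (−2.31 ± 0.25, 4.56e-08) and Scn3b (−1.82 ± 0.22, 2.20e-07) were lower, again in 10 of 10 mice each. Neuroblast markers summed to 982 to 5031 CPM in Schwann-like and to 11897 to 19698 in neuroblast-like cells, and the part of such RNA in the low values was not tested.

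Myofibroblast-like cells, which met all 10 markers of mural cells on the list, were led by Kcnj8 (chr6:142564837-142571614). It lay between 280.2 and 1236.8 CPM in 9 mice, with a median of 563.4, against 11.5 ± 16.4 in endothelial-like cells. Kcna5, a Kv pore of smooth muscle, held 194 ± 178, Kcnab1, a beta subunit, 154 ± 134, and Kcne4, an auxiliary subunit that dampens Kv channels, 145 ± 172. Over all 12 mice, 113, 27, 23 and 17 UMIs of these genes were counted in the class. The WT mouse held 21, 1, 3 and 2 of them, and the older Th-MYCN+/- mouse 20, 1, 0 and 2. The values of the 9 mice rest on the remaining UMIs. In the comparison with endothelial-like cells over 9 mice, 267 genes passed the filter on low counts, of which 69.7% were called, and no channel gene was among them. With no such filter, chosen as an alternative, 56 channel genes were tested, and 2.28% of the 13429 genes tested were called higher and 9.23% lower, 11.5% in all. Kcnab1 (4.99 ± 0.81, edgeR adjusted p = 3.25e-08), Kcnj8 (4.98 ± 0.58, 2.18e-15), Kcne4 (4.46 ± 0.89, 1.76e-05) and Kcna5 (3.36 ± 0.65, 7.66e-06) were called higher and Kcnq1 (−3.88 ± 1.17, 0.0111) lower.

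Kcnq1, a pore subunit of slow potassium currents in heart and epithelia, was the channel gene that set endothelial-like cells apart, at 34.3 ± 33.9 CPM with 29 of its 31 UMIs in that class, and it was at 0 in 3 of 10 mice. Macrophage-like, fibroblast-like and B cell-like cells had no channel gene that met the rule for naming, and their summed levels lay below those of the neural classes.

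Levels of some of the genes are also given by cluster within the classes. The neuroblast-like class held a shallow cluster of 2247 cells, a cluster of 1682 cells led by cycling genes and a cluster of 1333 cells with Cartpt. Kcnip1 was at 61.3 ± 32.8, 73.9 ± 34.8 and 92.5 ± 41.9 CPM in these (SD between mice, n = 10). Kcnc4 was at 21.6 ± 36.0, 9.25 ± 13.9 and 2.59 ± 3.65, and Kcnmb4 at 32.7 ± 39.5, 9.76 ± 8.90 and 4.98 ± 4.55. Both genes, which are higher in ganglion-like cells, had their highest mean in the shallow cluster, with an SD larger than the mean. Among ganglion-like cells Kcnc4 was at 95.3 ± 46.9 (n = 5) in the cluster of 1399 cells, 87.7% of which came from replicate 2, 139 ± 77.2 in a shallow cluster of 916 cells and 119 ± 40.0 in a cluster of 382 RNA-rich cells. In Schwann-like cells Kcna1 was at 475 ± 353 in the cluster of 2283 cells and 324 ± 112 in that of 606 cells (n = 9). These clusters were not tested against each other, and the SD between mice does not measure a difference between clusters of the same mice.

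Values of the single mice were set beside the range of the 10 Th-MYCN+/- mice of 3 weeks. The summed level of the 136 genes in the 6-week-old mouse was 1142 CPM in neuroblast-like cells (95% Poisson interval 1100 to 1185), 2301 in ganglion-like (2207 to 2398) and 1772 in Schwann-like cells (1656 to 1894), each within the 3-week-old range. In the WT mouse it was 1821 in ganglion-like (1673 to 1979) and 1413 in Schwann-like cells (1265 to 1573), also within range. Different clusters made up the ganglion-like class: 55.5% of its cells in the 3-week-old Th-MYCN+/- mice lay in the cluster dominated by replicate 2, against 6.74% in the WT and 6.90% in the 6-week-old mouse, where the shallow cluster held 60.7% and 54.5%.

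Of the 73 channel genes with at least 20 UMIs in the neuroblast-like cells of all mice, 53 lay within the 3-week-old range in the 6-week-old mouse, and for 8 the Poisson interval lay outside it, 7 above and 1 below. Of the 12377 features with as many UMIs there, 83.5% lay within the range and 4.66% had an interval outside it, 2.67% above and 1.99% below. Kcnq3 was at 57.8 (48.6 to 68.1) against 0 to 41.8, Kcnip4 at 30.3 (23.8 to 38.1) against 0 to 16.5, and Kcnmb4 at 36.9 (29.7 to 45.3) against 3.06 to 24.7. Kcnab2, Kcnmb4os2, Kcnh8 and Kcnd1 were above the range as well, with 22 of the UMIs of Kcnd1 in 1 cell. Kcnmb2 was below it, at 20.5 (15.2 to 27.0) against 29.5 to 62.0. The 3 genes given first among those above are genes of ganglion-like cells and Kcnmb2 is a gene of neuroblast-like cells. Ganglion markers in these cells summed to 11883 CPM, above the 3-week-old range of 1221 to 9845, and their part in these values was not tested.

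In ganglion-like cells of the 6-week-old mouse, 64 of 68 genes lay within the 3-week-old range, as did 92.5% of the 11267 features with at least 20 UMIs in the class. Kcnq3, at 190.0 (163.7 to 219.4) against 36.6 to 154.8, and Kcnmb4, at 141.0 (118.4 to 166.6) against 56.6 to 118.4, had intervals that lay above it, for Kcnmb4 only just, where 1.04% of all these features had an interval above the range. Kcnq3 and Kcnmb4 were thus above the range in both the neuroblast-like and the ganglion-like cells of this mouse. In the WT mouse 56 of 68 genes lay within the range in ganglion-like cells and 22 of 23 in Schwann-like cells, beside 84.9% of the 11267 and 89.9% of the 9252 features of these classes. None of these channel genes had an interval outside the range, where 1.73% and 1.46% of the features did. Kcnip1 and Kcnmb2 were at 0 UMIs in the 89 WT ganglion-like cells, where 3 UMIs would have been 9.79 CPM. In Schwann-like cells of the 6-week-old mouse 23 of 23 genes lay within the range, beside 94.2% of the features, with Kcna1 at 310.7 (263.2 to 364.2). Kcnj8 in myofibroblast-like cells was at 1399 (866 to 2138) in the WT and 1581 (966 to 2442) in the 6-week-old mouse, with intervals that reached into the 3-week-old range of 280.2 to 1236.8. With 1 mouse a group, none of these differences could be tested, and age, tumor and animal cannot be told apart.

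**Figure D5:**
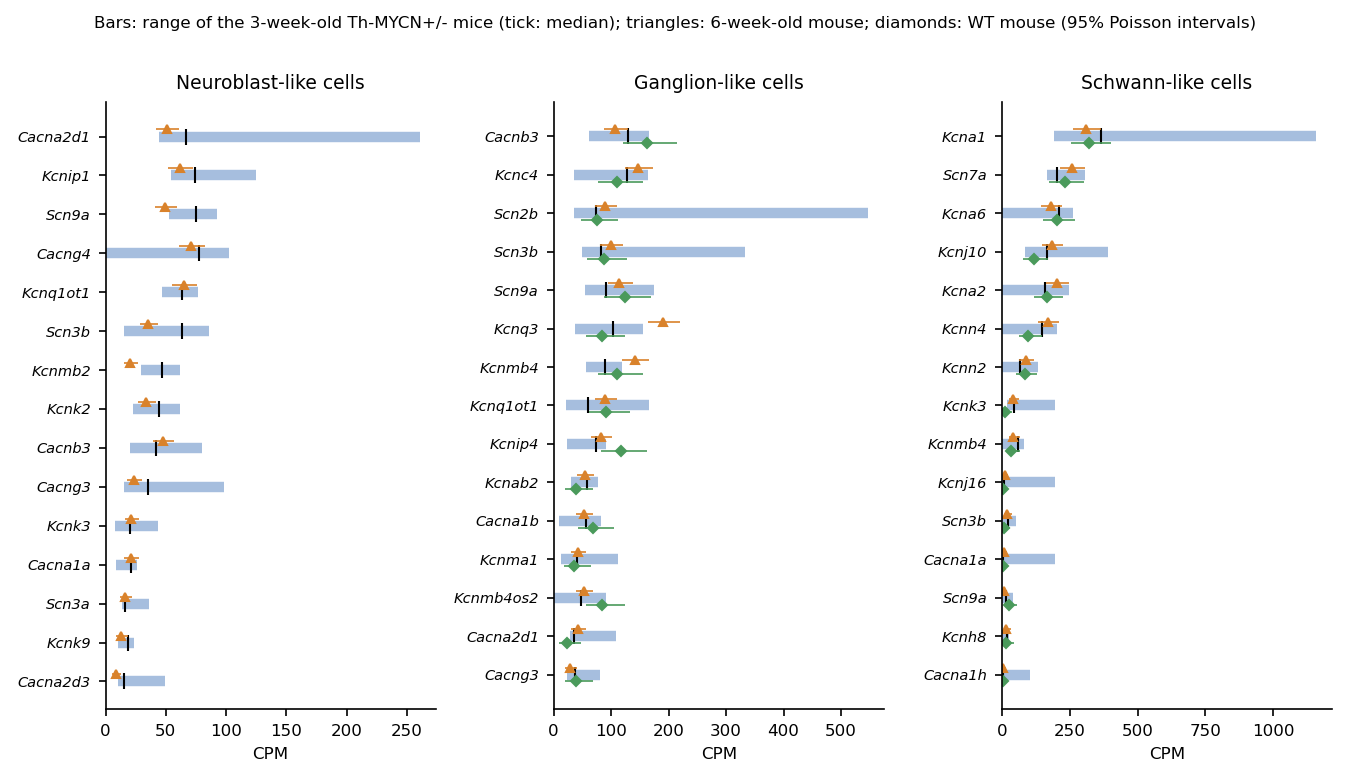
15 of the channel genes with the highest means in each of neuroblast-like, ganglion-like and Schwann-like cells (linear x axes, CPM). Bars span the 10 Th-MYCN+/- mice of 3 weeks with a tick at the median, and triangles and diamonds are the 6-week-old and the WT mouse with 95% Poisson intervals, the WT mouse not being drawn for neuroblast-like cells. Kcnq3 of the 6-week-old mouse lies above the bar in ganglion-like cells, at 190.0.

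Single cells with many UMIs of 1 channel gene were found in several libraries. In 30 cells, 1 of 23 channel genes reached at least 20 UMIs, and together they held 1286 UMIs, or 2.98% of those of all channel genes. They included 62 UMIs of Kcnip1 in a neuroblast-like cell of replicate 9 and 63 of Cacng3 in another cell of the same mouse. Scn2b and Scn3b in replicate 8 each rested on 1 ganglion-like cell: for Scn3b 36 of 42 UMIs lay in 1 cell, and its value of 333.1 CPM was 51.1 without it. With these 30 cells left out, an alternative chosen after the data were seen, the direction and the call of the 44 genes and comparisons named did not change.

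The 43 channel genes under 20 UMIs included Scn4a, the sodium channel pore of skeletal muscle, and its beta subunit Scn4b, both at 0 UMIs, and Scn10a, a pore of nociceptors, with 13. Of the inward rectifiers 9 of 15 were undetected, with Kcnj2, the strong rectifier of muscle, at 13 UMIs and Kcnj11, the pore of the ATP-sensitive channel of pancreatic islets, at 5. Kcns1, Kcng1 and Kcnv2, which are silent Kv subunits, were at 0. At this depth such values do not show absence.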

How the data were processed

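Single cells of the SMG, dissociated with collagenase IV and TrypLE, were sequenced with a 3' end kit. The authors aligned the reads with Cell Ranger (3.0.2 in the file headers) to mm10 with a human MYCN feature, and the deposited values are raw UMI counts for 737280 barcodes a library, cells and empty droplets together. The sources used here do not say whether counting used strand.

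Cells were called against droplets of at most 100 UMIs by an EmptyDrops-type test (10000 draws, FDR 0.01) and kept with at least 200 genes, at most 10% mitochondrial and at most 60% ribosomal UMIs. They were clustered with Seurat 5.3.0 (sctransform 0.4.2, 2000 variable genes without the channel genes, 30 components, resolution 0.5). A cluster was named where at least 50% of a marker list, and at least 3 markers, were 1.5 times the median cluster and seen in 10% of cells, a scoring rule set after the clusters were seen. Scrublet called 48 cells (0.3997%). Whether it found the doublets present was not checked, and doublets were not removed.

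UMIs were summed per mouse and class (at least 5 cells) and tested with edgeR 4.0.16 (quasi-likelihood, TMM, filterByExpr, Benjamini-Hochberg adjustment over all genes tested, threshold 0.05), with the SE of a difference taken as its size over the square root of F. The mouse was a block since both sums come from 1 animal and library, and the deviations of paired sums correlated at −0.00207 to 0.322 between ganglion-like and neuroblast-like cells. The p-values measure the spread between these mice. On simulated counts for the 7611 genes of that comparison, 173 of 179 tested genes changed by 1.5 on the log2 scale were called, with 9 false calls. Levels (CPM) are UMIs scaled to 1000000 UMIs of a class. Intervals (exact Poisson) and floors of 3 counts cover counting error only.

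The members and gene lists were chosen with earlier results of these data known. Genes were named where called with the same sign in at least 80% of mice (up to 15 a direction), as the most frequent of a subfamily, or as the up to 5 that lead a class with at least 20 UMIs there. Other genes in the text were chosen after their values were seen. Alternatives were DESeq2 1.42.0, filters, clustering settings, doublet scores, free RNA, thinning, the block and left-out libraries or cells. Results of some genes are not reported here.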

Additional observations from a re-analysis of the deposited data

Results flagged for a closer look

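In 11 of the 43 groups of 3-week-old Th-MYCN+/- mice examined, the highest or lowest mouse stood apart from the others by more than the 95% critical value of Dixon's test, which chance gives in about 1 group in 20. All values are CPM of the class.

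In neuroblast-like cells, Cacna2d1 was at 260.7 in replicate 7, with 87.5 next, and 111 of its 156 UMIs there lay in 1 cell. Cacng4 was at 0 in replicate 2, where the next mouse had 56.2. In ganglion-like cells, replicate 8 gave 3 such values: Scn2b was at 547.3, with 89.2 next, Scn3b at 333.1, with 132.2 next, and Kcnip4 at 23.8, the lowest, with 62.6 next. For Scn2b and Scn3b most UMIs lay in 1 cell, and without that cell the values were 47.5 and 51.1.

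In Schwann-like cells, Kcna1 was at 1158.3 in replicate 7, with 546.1 next. The other 3 values came from replicate 2, with its 9 Schwann-like cells: Kcnj10 was at 392.9, with 237.0 next, Kcnk3 at 196.5 from 1 UMI, with 78.4 next, and Kcna6 at 0, where the next mouse had 146.2.

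The sum of the 136 channel genes was highest in the endothelial-like cells of replicate 3, at 748.2, with 434.6 next, and in the myofibroblast-like cells of replicate 8, at 3585, with 2283 next.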

How the results depend on the processing

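Of 44 named genes and comparisons, 522 values under the alternatives kept their direction and side of the threshold, none reversed, and 2 no longer passed: Cacna2d1 between ganglion-like and neuroblast-like cells with free RNA subtracted (−0.79, adjusted p = 0.0831) and Kcnk10 there with no replicate block (0.80, adjusted p = 0.0844). Subtraction of free RNA gave no value for 4 of them. The 522 values include repeats of the same fit. A limit of 10 cells per sum left the comparison of ganglion-like with neuroblast-like cells unchanged. In both comparisons of Schwann-like cells it gave the same fit as leaving out replicate 2. With no replicate block, 17 channel genes were called higher and 6 lower in ganglion-like than in neuroblast-like cells (29.4% and 38.2% of all genes), against 20 and 6 with the block, and the numbers in the other comparisons were as before. With no filter on low counts, where 118 channel genes were tested, 39 were higher and 8 lower in ganglion-like than in neuroblast-like cells (18.6% and 20.1% of all genes tested), and 17 were higher and 44 lower in Schwann-like than in neuroblast-like cells (16.8% and 26% of all). Against ganglion-like cells 12 of 108 were higher and 54 lower in Schwann-like cells (16.8% and 22% of all), and between myofibroblast-like and endothelial-like cells 4 of 56 were higher and 1 lower (2.28% and 9.23% of all), since more genes are tested in this way.

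Between Schwann-like and ganglion-like cells, 7 were higher with at least 10 cells per sum and 7 without replicate 2, the same library being left out. In these fits 32.8% of all genes were higher. With replicate 2, 4 were higher, beside 31.4% of all genes. Without replicate 2, 23 were higher in ganglion-like than in neuroblast-like cells (31.9% of all genes) and 9 in Schwann-like than in neuroblast-like cells (32.9%). With free RNA subtracted, the sum in ganglion-like cells was 2597, against 2035. Thinned to 1000 UMIs, 62.1%, 82.7% and 74.8% of neuroblast-, ganglion- and Schwann-like cells held a channel gene, against 39.2%, 59.1% and 57.2% at 500 UMIs. At this depth the comparison of myofibroblast-like with endothelial-like cells held no channel gene under the filter: edgeR and DESeq2 gave 0 calls because none was tested, and likewise 0 at an unadjusted p under 0.05.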
